A study of Mus musculus with 24 samples.

Results

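The comparison covered the olfactory bulb of mice that lack Cdr1as, with 6 libraries of the 24 in the series: 3 labelled Cdr1as knockout and 3 labelled wild type, both on the C57BL/6 background. The libraries were chosen by their labelled tissue and genotype, and the knockout effect was read across all 37621 annotated features, of which 16131 had enough reads to test. Bulbs were dissected, RNA was extracted with TRIzol, and polyadenylated RNA was sequenced with the TruSeq Stranded mRNA kit. The remaining 18 libraries came from cerebellum, cortex and hippocampus, 3 per genotype and region, and were used only for a shared estimate of the spread and for a test of where the bulb differed. The labels give no age or sex, do not describe the deleted allele, and leave unstated if the 3 replicates of a group were different mice. The p-values therefore reflect how far these samples differ among themselves, which may be technical variation.

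Cdr1as is a circular RNA made by back-splicing and abundant in neurons. It carries many matches to the microRNA miR-7 and a site for miR-671, through which the circle can be cut. MicroRNAs such as miR-7 pair through their seed, bases 2 to 8, with sites in the 3' untranslated regions of messenger RNAs and lower their level or translation. Because the circle lacks a poly(A) tail, libraries selected on that tail hold it through carry-over or as linear transcripts of the locus. In the bulb, sensory axons from the nose contact mitral and tufted cells, and granule and periglomerular interneurons, which are replaced through adult life, shape the output. Odour and other input switches on immediate-early genes in these cells: transcription factors of the Fos, Egr and Nr4a families, switched on through the pre-existing factors CREB and SRF and followed by effector genes.

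The 2 miR-7 species of the mouse are shown because the target counts given further on rest on their shared seed, which is in capitals; both mature sequences come from RefSeq (GRCm38.p6). The miR-7a sequence is encoded both on the plus strand at chr7:78888295-78888317 and on the minus strand at chr13:58392841-58392863, and miR-7b on the plus strand at chr17:56243017-56243040.
mmu-miR-7a-5p: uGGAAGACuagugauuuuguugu
mmu-miR-7b-5p: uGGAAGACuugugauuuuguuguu
Their seed is the same, GGAAGAC, and the target match counted below is its complement followed by an A.

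The knockout bulb libraries were deeper than the wild-type ones: 36.7, 40.5 and 33.8 M gene counts against 22.6, 27.2 and 21.1 M. Tissue identity was checked on Tbx21 and Cdhr1 of mitral and tufted cells, Th of dopaminergic interneurons and Synpr of granule cells. The lowest of the 6 bulb libraries was above the highest of the 18 others for all 4 genes, for example 188 against 12.5 CPM for Th (CPM being the count scaled to library size after TMM normalisation). Both Th values are on the scale of all 24 libraries, which differs from the 6-library scale used for Th further on. Both libraries numbered 2, one of each genotype, stood apart from the other 4 on the first principal component, which held 61% of the variance, and the 10% of their genes with the longest transcripts (6.93 kb or more) lay at a median log2 of -0.42 and -0.34 from the gene means, against 0.14 to 0.23 in the other 4. The fits were therefore repeated without these 2 libraries. Single libraries also held transcripts typical of neighbouring tissues: Gh, the growth hormone of the pituitary, reached 541 CPM in knockout 3, and Cyp2a5 of nasal mucosa 75 CPM in wild type 3.

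The targeted locus was examined first. Cdr1asG, the authors' own entry for Cdr1as, was at 11, 2.34 and 8.86 CPM in the wild-type bulbs and at 0.645, 0.12 and 0.307 CPM in the knockout bulbs. All 3 knockout libraries lay below all 3 wild-type libraries, and wild type 2 was the lowest of its group. The log2 fold change was -4.38 (SE 0.78), with an adjusted p of 0.583 in edgeR's quasi-likelihood test on the 6 libraries; with the replicate number as a block it was -4.37 (SE 0.24), adjusted p = 0.000289. In raw reads the wild-type libraries had 242, 67 and 188 and the knockout libraries 23, 5 and 10. Cdr1, the annotated gene on the opposite strand, had no read counted in any of the 6 libraries. The strand setting of the counting is not given, so reads of overlapping antisense genes may not be separable. C230004F18Rik, the long non-coding RNA whose locus holds Cdr1as, had 10.6, 8.04 and 11.3 CPM in wild type and 24.5, 8.52 and 13.7 CPM in the knockout. Its groups overlapped, and the log2 difference of 0.64 (SE 0.38) did not pass.

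**Figure D1:**
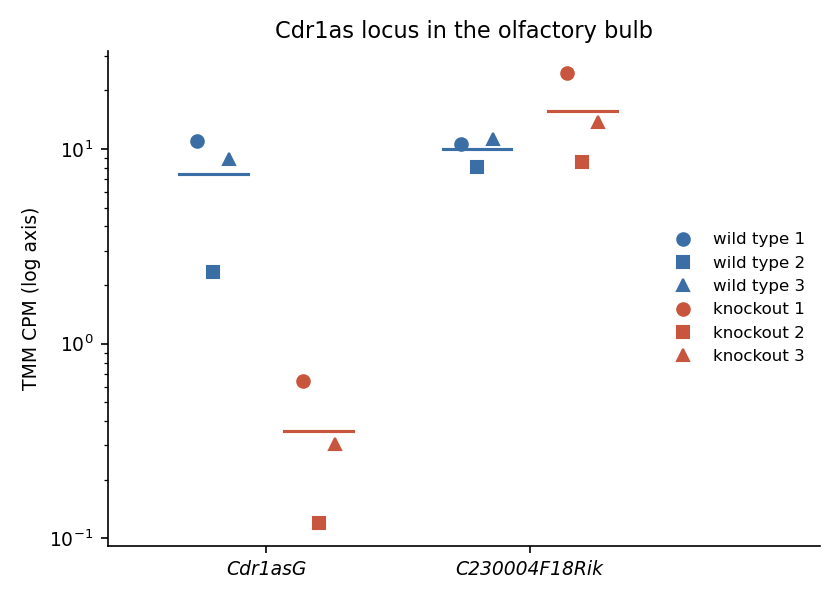
Level of Cdr1asG and of C230004F18Rik in each of the 6 bulb libraries, in TMM-scaled CPM on a log axis; symbols give the replicate number, colours the genotype and bars the group mean. The knockout libraries sit at 0.12 to 0.645 CPM for Cdr1asG, below all wild-type libraries, while the groups overlap for C230004F18Rik.

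Across all genes, no difference passed an adjusted p of 0.05 in the 6-library edgeR fit without a block: 0 of 16131 genes, or 0% (smallest adjusted p 0.259). At an unadjusted p under 0.05 that fit gave 859 genes, 439 higher (2.72%) and 420 lower (2.6%) in the knockout; limma-voom called 0 and DESeq2 62, of which 51 were higher. The labels do not say that equal numbers mark pairs. Deviations from the group means correlated between libraries of equal number (r = 0.448, 0.797 and 0.291 for numbers 1, 2 and 3). They did so at least as much between wild type 1 and knockout 3 (0.494) and between wild type 3 and knockout 1 (0.377). These values therefore do not show that numbers 1 and 3 mark pairs. With the number as a block edgeR called 57 genes (0.353% of those tested): 51 rose (0.316%) and 6 fell (0.0372%). Without both libraries numbered 2 the same fit called 7 genes. With the spread taken from all 24 libraries, 20 of 17266 genes passed (0.116%), of which 19 rose and 1 fell, and 16 of the 20 were also among the 57, which is 80% of the smaller set and 28.1% of the larger. Without both bulb libraries numbered 2 that count was 2, and it was 4 without wild type 1, 3 without wild type 2, 7 without knockout 2 and 6 without knockout 3. Below, a gene is said to have risen or fallen only where it passed in the block fit or in the 24-library fit, and the fit is named. Without both libraries numbered 2, the block fit called Cdr1asG, Atf3, Fosb, Fosl2, Nr4a2, Nr4a3 and Egr3, and the 24-library fit called Atf3 and Spata2l; no other call of these fits given below held without those libraries. After binomial thinning of all 6 libraries to the smallest total, the block fit called 58 genes, 52 of them the same.

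Among the 40 gene lists examined, that of the immediate-early genes held the most genes that rose. Of 46 tested members of that list, 18 rose and 0 fell with the block (39.1%, against 0.316% of all genes tested), 10 rose in the 24-library fit (against 0.11% of all genes), and 21 rose in at least 1 of the 2 fits. The count of 10 was 1 without wild type 1, 1 without wild type 2, 3 without knockout 2, 2 without knockout 3 and 1 without both bulb libraries numbered 2. In the fit without a block 43 of the 46 were higher in the knockout, with a median log2 of 0.80 against -0.002 over all genes tested, and 35 had knockout libraries all above the wild-type ones, as did 5.39% of all genes; 0 had them all below, as did 6.12% of all genes. Summed over the list, the wild-type bulbs held 1610, 1960 and 2470 CPM and the knockout bulbs 3330, 4570 and 4500 CPM. The list was chosen with earlier results of these data known, so its direction is not independent evidence. Within each pair of equal number the median log2 ratio over the members was 0.83, 0.95 and 0.57. Without both libraries numbered 2 the median was 0.69, 44 of 46 members were higher, and 6 rose with the block: Fosb, Fosl2, Atf3, Nr4a2, Nr4a3 and Egr3. Cdr1asG was the only other gene called without those libraries.

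Among the genes that rose, transcription factors are given first. Atf3, a CREB-family factor induced by stress and by activity, had 3.24, 2.62 and 5.47 CPM in the wild-type bulbs and 20.9, 22.9 and 31.4 CPM in the knockout bulbs. Every knockout library was thus above every wild-type library, and the log2 fold change was 2.77 (SE 0.13, edgeR adjusted p = 0.0002 with the block, 1.71e-05 with 24 libraries). Of the Fos family, Fosb, which forms AP-1 with Jun proteins and accumulates on repeated activity, had 21.2, 23.7 and 38.3 CPM in wild type and 89.6, 147 and 163 CPM in the knockout. It rose by a log2 of 2.27 (SE 0.12, edgeR adjusted p = 0.00217 with the block). Fosl2 had 97.5, 72.6 and 140 CPM against 289, 354 and 425 CPM, groups apart, and rose in the 24-library fit (log2 1.81, edgeR adjusted p = 0.00678) but not with the block (0.0517).

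Fos itself, the member most used as a mark of recent activity, had 18.3, 47.9 and 69.8 CPM in wild type and 86.6, 179 and 144 CPM in the knockout. The groups did not overlap, wild type 1 was the lowest library, and the log2 difference of 1.59 (SE 0.52) passed in neither edgeR fit (adjusted p = 0.275 with the block, 0.495 with 24 libraries). Junb, its AP-1 partner, also had groups apart without passing (log2 1.32, SE 0.46). Jun and Jund differed by a log2 of 0.10 and 0.18 and did not pass.

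The orphan nuclear receptors of the Nr4a family bind DNA without a known hormone ligand. Nr4a3 had 23.3, 16.9 and 45.9 CPM in wild type and 108, 119 and 178 CPM in the knockout, and rose by a log2 of 2.31 (SE 0.18, edgeR adjusted p = 0.0357 with the block). Nr4a2, which dopaminergic neurons also need, had 19.8, 18.3 and 26.9 CPM against 56.3, 60.7 and 74.5 CPM, with a log2 of 1.57 (SE 0.07, edgeR adjusted p = 0.0002 with the block). In both genes wild type 3 was the highest of its group and the lowest knockout library was still above it. For Nr4a1 the groups overlapped: wild type 3, at 218 CPM, exceeded knockout 1, at 215 CPM, and the log2 of 1.48 (SE 0.57) did not pass.

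Of the Egr zinc-finger factors, Egr3 had 28, 27.7 and 33.4 CPM in wild type and 69.8, 88.6 and 104 CPM in the knockout. Its wild-type values lay close together and far from the knockout ones, and it rose by a log2 of 1.55 (SE 0.08, edgeR adjusted p = 0.000289 with the block). Egr4 rose in the 24-library fit (log2 1.80, edgeR adjusted p = 0.0321), from 3.7, 7.79 and 13.1 CPM to 18.8, 36.1 and 28.9 CPM. Egr1 had groups apart, at 73.3, 187 and 234 CPM against 281, 511 and 412 CPM, but a log2 of 1.28 (SE 0.44) that did not pass. Nab2, a corepressor that binds Egr proteins and is itself induced by them, rose by a log2 of 0.57 (SE 0.06, edgeR adjusted p = 0.0155 with the block). Leaving out both libraries numbered 2, Nab2 had a log2 of 0.59 with the block (edgeR adjusted p = 0.335) and Egr4 one of 1.53 in the 24-library fit (edgeR adjusted p = 0.65).

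Synaptic, signalling and further nuclear genes were also among those that rose. Arc, which binds AMPA receptors' endocytic machinery at synapses, had 64.2, 165 and 175 CPM in wild type and 230, 428 and 375 CPM in the knockout, and rose with the block (log2 1.43, SE 0.14, edgeR adjusted p = 0.0463). Npas4, a factor induced by calcium entry in neurons, had 35.6, 57.6 and 44.4 CPM against 70.2, 157 and 127 CPM, a log2 of 1.32 (SE 0.10, edgeR adjusted p = 0.0108). Wild type 1 and knockout 1 were the lowest of their groups for both genes, and the SE of the log2 of Arc was 0.42 without the block. Ptgs2, the inducible cyclooxygenase, rose by a log2 of 1.24 (SE 0.13, edgeR adjusted p = 0.0155), Gadd45b, a DNA-damage and demethylation-linked gene, by 0.98 (SE 0.10), Sik1, a kinase that restrains CREB coactivators, by 0.79 (SE 0.08), and Midn by 0.67 (SE 0.06), all with the block. The block fit without both libraries numbered 2 gave a log2 of 1.46 for Arc (edgeR adjusted p = 0.388), 1.25 for Npas4 (0.102), 1.10 for Ptgs2 (0.335), 0.84 for Gadd45b (0.239), 0.69 for Sik1 (0.221) and 0.59 for Midn (0.225). Homer1 was at a log2 of 0.87 and did not pass.

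**Figure D2:**
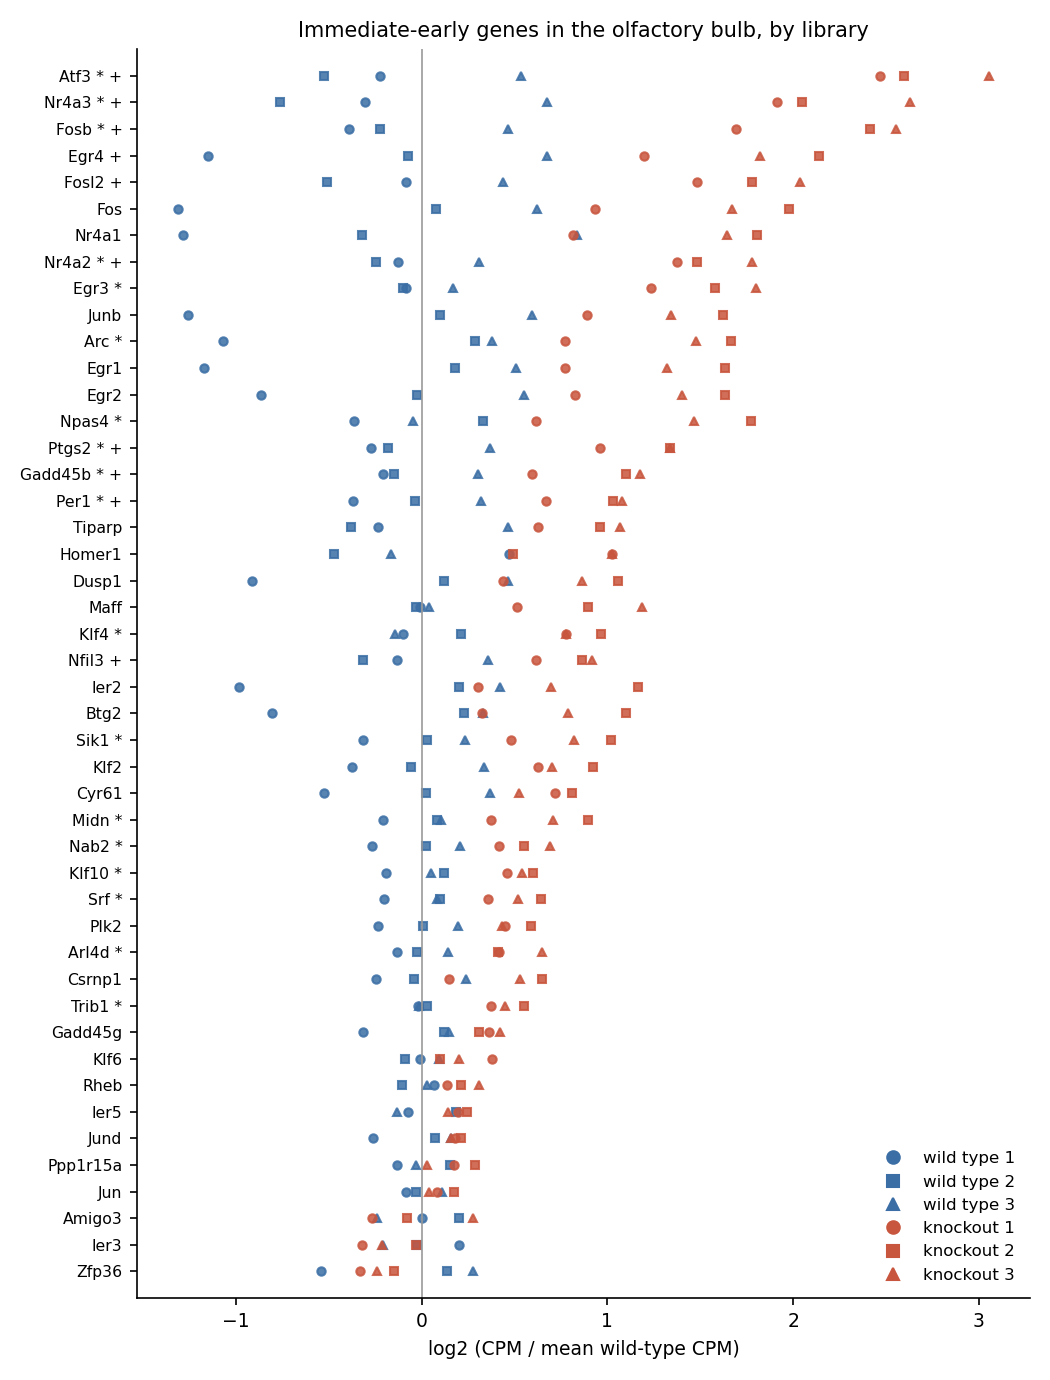
Each row is 1 of the 46 tested immediate-early genes and each point 1 library, as log2 of its CPM over the mean wild-type CPM; symbols give the replicate number, an asterisk a gene that passed with the replicate block and a plus a gene that passed in the 24-library fit. Knockout points lie to the right of all wild-type points in 35 rows, and Zfp36, Ier3 and Amigo3 at the foot are not higher in the knockout.

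Promoters of some genes that rose are shown because immediate-early genes are known for CREB sites near their start. Sstr2 is from outside the immediate-early list. A part of CREB in the rise was not tested. Each sequence is the 250 bases before the RefSeq start (GRCm38.p6), read 5' to 3' on the gene's own strand, with matches in capitals: the short CRE TGACG on either strand, the full CRE TGACGTCA, which holds the short one on both strands, and the CArG box bound by SRF. Nr4a2 lies at chr2:57124004-57124253 (minus strand), Nr4a3 at chr4:48045055-48045304 (plus), Npas4 at chr19:4989972-4990221 (minus), Atf3 at chr1:191183334-191183583 (minus), Srf at chr17:46556163-46556412 (minus) and Sstr2 at chr11:113619077-113619326 (plus).
Nr4a2: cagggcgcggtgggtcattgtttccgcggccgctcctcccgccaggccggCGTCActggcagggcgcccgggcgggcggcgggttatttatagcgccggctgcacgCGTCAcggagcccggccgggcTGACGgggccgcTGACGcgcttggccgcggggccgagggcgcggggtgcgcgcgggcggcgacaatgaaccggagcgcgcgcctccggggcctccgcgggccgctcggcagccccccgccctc
Nr4a3: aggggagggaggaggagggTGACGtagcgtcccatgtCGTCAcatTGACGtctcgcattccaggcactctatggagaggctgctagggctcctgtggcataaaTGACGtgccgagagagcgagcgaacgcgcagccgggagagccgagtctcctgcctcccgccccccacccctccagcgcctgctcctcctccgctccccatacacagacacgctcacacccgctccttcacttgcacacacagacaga
Npas4: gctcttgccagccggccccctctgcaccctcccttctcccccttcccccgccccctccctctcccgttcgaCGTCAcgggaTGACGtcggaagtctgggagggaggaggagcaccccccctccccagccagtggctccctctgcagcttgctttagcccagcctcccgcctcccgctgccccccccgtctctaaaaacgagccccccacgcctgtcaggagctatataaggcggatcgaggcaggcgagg
Atf3: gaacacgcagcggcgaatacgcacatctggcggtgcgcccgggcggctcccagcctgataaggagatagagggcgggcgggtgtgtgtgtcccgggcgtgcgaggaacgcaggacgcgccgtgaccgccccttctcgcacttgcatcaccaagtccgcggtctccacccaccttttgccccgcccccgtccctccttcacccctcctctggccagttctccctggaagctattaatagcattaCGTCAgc
Srf: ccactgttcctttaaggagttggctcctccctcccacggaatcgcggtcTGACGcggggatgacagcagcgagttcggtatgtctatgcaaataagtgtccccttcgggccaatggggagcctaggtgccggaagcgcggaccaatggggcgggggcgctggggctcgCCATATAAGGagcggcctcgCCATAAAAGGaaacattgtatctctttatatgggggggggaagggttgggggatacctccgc
Sstr2: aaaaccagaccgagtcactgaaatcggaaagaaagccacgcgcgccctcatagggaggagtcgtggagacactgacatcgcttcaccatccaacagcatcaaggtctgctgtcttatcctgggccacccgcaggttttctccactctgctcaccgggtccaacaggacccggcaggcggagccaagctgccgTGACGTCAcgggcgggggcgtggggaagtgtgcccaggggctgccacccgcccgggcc
Nr4a2 and Nr4a3 held 4 short CREs each, Npas4 held 2, Atf3 1 near its start, Srf 1 with 2 CArG boxes, and Sstr2 the full CRE. Every promoter shown thus held a match, but not every gene that rose had one. Among those not shown, Fosl2, Arid5a, Gadd45b, Ptgs2 and Nab2 held none of these motifs in this window. Fosb, Per1 and Klf4, also not shown, held 1 short CRE each, and Egr4 held 2. Srf, which encodes the factor that binds CArG boxes and was picked for display after its values were seen, had 31.2, 38.3 and 38 CPM in wild type and 45.9, 56 and 51.3 CPM in the knockout, and rose with the block (log2 0.51, SE 0.06, edgeR adjusted p = 0.0205; log2 0.50 and adjusted p = 0.496 without both libraries numbered 2).

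Of the 51 genes that rose with the block, 37 had a promoter in the table. A short CRE was found in 17 of the 37 (45.9%), against 17.9% of the 27025 promoters of that length, and the full CRE in 4 (10.8%, against 1.62%): Arl4d, Nkrf, Sstr2 and Tmem198. The 27025 were not limited to genes with enough reads to test, as the 37 were, so these shares compare unlike sets. The AP-1 site TGANTCA, searched on both strands, was found in 1 (2.7%, against 6.87%), Tnfaip6, and the CArG box in 1, Srf (against 1.4%). Of the 17 genes with a short CRE, Atf3, Fosb, Nr4a2 and Nr4a3 were also called without both libraries numbered 2, and of the 4 with the full CRE none was. Such a match is a description of the letters in this window.

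Outside the immediate-early list, 33 genes rose with the block, by log2 values of 0.38 to 1.69. Of these, 29 had knockout libraries all above the wild-type ones, as did 5.39% of all genes tested. Selection by p on the same libraries favours such separation, so that count is no added evidence. Sstr2, a somatostatin receptor that inhibits the cell through Gi, had 1.55, 1.71 and 2.87 CPM in wild type and 7.29, 6.13 and 6.01 CPM in the knockout. It rose by a log2 of 1.69 (SE 0.23, edgeR adjusted p = 0.0357 with the block and 0.0189 with 24 libraries), and no wild-type library came near the lowest knockout one. Tnfaip6, a hyaluronan-binding protein of the extracellular matrix, had 10.3, 10.7 and 20.7 CPM against 22.5, 29.6 and 37 CPM, and rose with the block (edgeR adjusted p = 0.0155); its log2 without the block was 1.10 (SE 0.32). Wild type 3 and the lowest knockout library were close there, at 20.7 and 22.5 CPM. With both libraries numbered 2 left out, the block fit gave Sstr2 a log2 of 1.62 (edgeR adjusted p = 0.52) and Tnfaip6 one of 0.98 (0.158).

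Arid5a, which stabilises inflammatory messenger RNAs, had 18, 15.4 and 17.8 CPM in wild type and 30, 35.5 and 35.3 CPM in the knockout, and Spata2l had 24.8, 25.9 and 28.8 CPM against 41.6, 45.3 and 44 CPM. Within each group these 2 genes varied little, and both rose in both fits (Arid5a log2 0.98, SE 0.10, Spata2l log2 0.72, SE 0.07; edgeR adjusted p = 0.0113 and 0.0108 with the block). Slc25a25, a mitochondrial ATP-Mg carrier, rose by a log2 of 0.41 (SE 0.05), Lonrf1 by 0.55 (SE 0.08), Bcorl1, a corepressor, by 0.52 (SE 0.07) and Rhbdl3 by 0.42 (SE 0.06), all with the block. Cyp51, the demethylase of cholesterol synthesis, had 55.8, 44.9 and 53.5 CPM in wild type and 76.5, 70.6 and 80.4 CPM in the knockout (log2 0.57, SE 0.06, edgeR adjusted p = 0.0155 with the block). The log2 values of these 7 genes without both libraries numbered 2 in the block fit lay between 0.39 (Slc25a25) and 0.86 (Arid5a), with edgeR adjusted p from 0.212 to 0.565.

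Feedback inhibitors of the MAP kinase pathway, which the same stimuli induce, were a list of 14 tested genes with a median log2 of 0.176, against -0.002 over all genes tested. With the block 2 of the 14 rose and 0 fell, where 0.316% of all genes tested rose. Spry4, a Sprouty inhibitor of receptor signalling, went from 19.2, 20.3 and 19.9 CPM to 28.3, 32.5 and 30.1 CPM (log2 0.61, SE 0.07, edgeR adjusted p = 0.0158 with the block), and Dusp14, a dual-specificity phosphatase, rose by 0.40 (SE 0.06). Dusp4 and Dusp6, phosphatases that act on ERK, had groups apart and log2 values of 0.41 each without passing. Dusp16, which acts on JNK and p38 and was not on the list, rose in both fits (log2 0.48, SE 0.07, with the block). When both libraries numbered 2 were left out, the block fit called 0 of the list; the log2 was 0.58 for Spry4 (edgeR adjusted p = 0.428) and 0.39 for Dusp14 (0.663), and 0.52 for Dusp16 (0.544). Of 18 late activity genes, among them Bdnf, Vgf and Nptx2, 0 passed in either edgeR fit. Of all genes tested 0.353% passed with the block and 0.116% with 24 libraries, so the 0 lies near those shares. Without a block 2 of the 18 were higher at an unadjusted p under 0.05, against 2.72% of all genes tested, and 0 were lower, against 2.6%. The median log2 of the 18 was 0.185, and Bdnf, a neurotrophin, was at a log2 of 0.19 (SE 0.16).

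**Figure D3:**
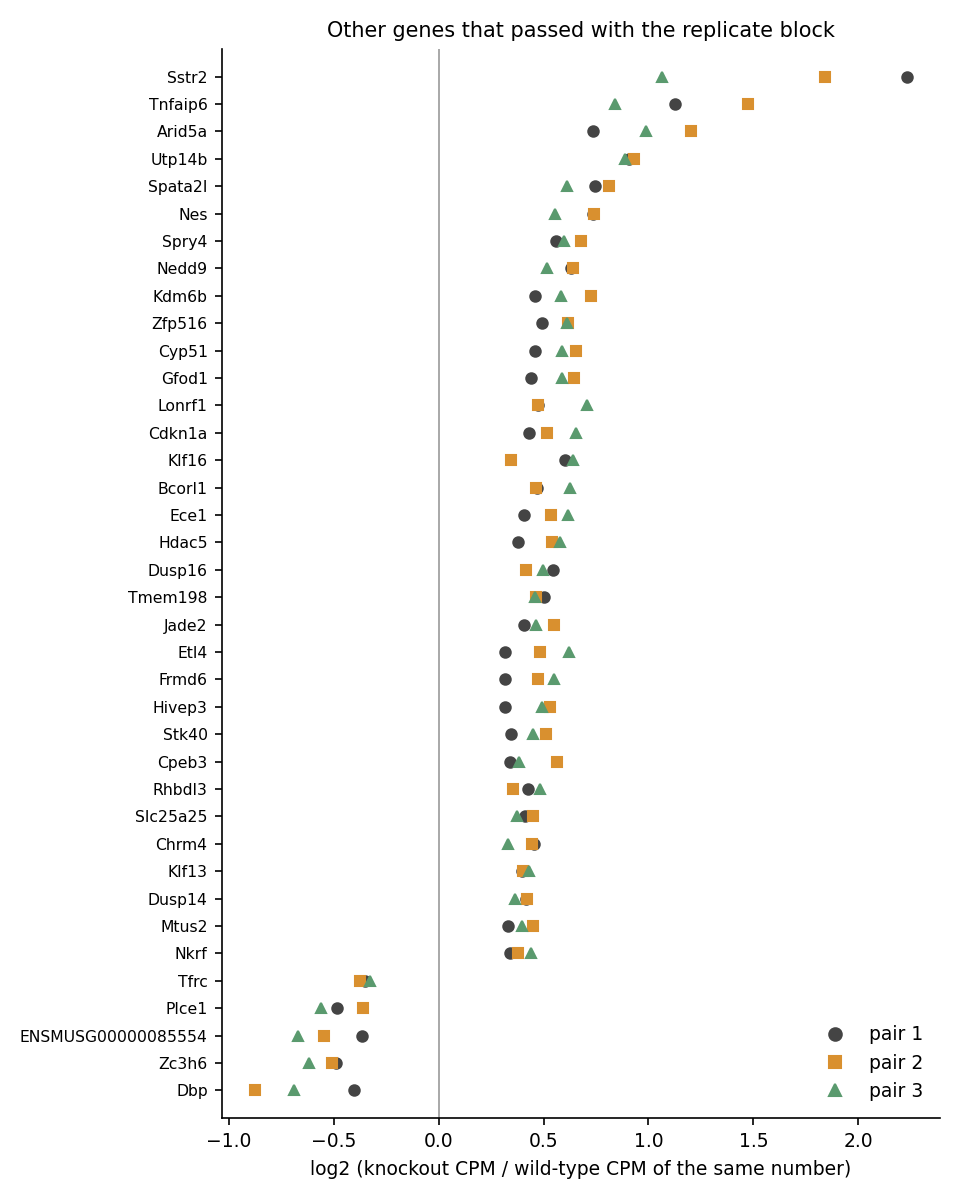
Log2 ratio of knockout to wild-type CPM in each of the 3 pairs of equal replicate number, for the genes outside the immediate-early list that passed with the block, Cdr1asG left out. All 3 points lie on the same side of 0 in each row, and the pairs of Sstr2 are the most widely spread.

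The 6 genes that fell with the block were Cdr1asG, Dbp, Tfrc, Zc3h6, Plce1 and the unnamed ENSMUSG00000085554; the last 3 have overlapping groups and are named only to complete the count. Dbp, a PAR bZIP factor driven by the circadian clock, had 55.1, 77.2 and 58.1 CPM in wild type and 41.7, 42.1 and 36 CPM in the knockout. The lowest wild-type library was above the highest knockout one, and the log2 was -0.66 (SE 0.09, edgeR adjusted p = 0.0361 with the block). Tfrc, the transferrin receptor, had 150, 164 and 182 CPM against 118, 127 and 145 CPM (log2 -0.35, SE 0.05, edgeR adjusted p = 0.0401 with the block). Galnt18, a glycosyltransferase, fell in the 24-library fit alone, from 49.4, 56.5 and 45.1 CPM to 28.1, 32.6 and 38.5 CPM (edgeR adjusted p = 0.0327). Without both libraries numbered 2 the log2 was -0.55 for Dbp (edgeR adjusted p = 0.499) and -0.34 for Tfrc (0.833) with the block, and -0.49 for Galnt18 (0.664) in the 24-library fit. In the fit without a block the smallest p-values among lower genes, none of which passed, included Lcmt2 (log2 -0.61), Plekho2 (-0.51), Zfp867 (-0.72) and Tnfsf10 (-0.73), with groups apart in each.

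Of 24 clock genes tested, 1 rose and 1 fell with the block, against 0.316% and 0.0372% of all genes tested. Per1, both a clock repressor and an immediate-early gene, had 94.1, 119 and 152 CPM in wild type and 194, 249 and 257 CPM in the knockout, a log2 of 0.95 (SE 0.07, edgeR adjusted p = 0.0026 with the block), and Dbp fell. Nfil3, the repressor that competes with Dbp for its sites, rose in the 24-library fit (log2 0.83, edgeR adjusted p = 0.0164). Without both libraries numbered 2 the log2 was 0.90 for Per1 with the block (edgeR adjusted p = 0.102) and 0.66 for Nfil3 in the 24-library fit (0.457). Per2 (log2 0.36), Nr1d1 (-0.35) and Ciart (-0.35) did not pass, and the list's median was 0.02.

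The 28 tested genes reported as miR-7 targets had a median log2 of 0.036, against -0.002 over all genes tested. With the block 2 rose, where 0.316% of all genes tested did: Klf4, a Krüppel-like factor, from 7.44, 9.23 and 7.21 CPM to 13.6, 15.6 and 13.6 CPM (log2 0.85, SE 0.10 with the block), and Nr4a3, both of them also on the immediate-early list. The list's median was 0.06 without both libraries numbered 2, where Nr4a3 was still called and Klf4 was not (log2 0.90, edgeR adjusted p = 0.388). Irs2, an adaptor of insulin signalling, had groups apart with a log2 of 1.01 (SE 0.29) and did not pass. The microRNA processing and Argonaute list had 22 tested genes, of which 0 passed in either edgeR fit and 0 had an unadjusted p under 0.05. Of all genes tested 0.353% passed with the block and 0.116% with 24 libraries, so the first 0 lies near those shares. At an unadjusted p under 0.05 without a block, 2.72% of all genes tested were higher and 2.6% lower.

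Genes with an exact match to the seed in an annotated 3' untranslated region (GTCTTCCA, GENCODE M21) were counted next. Of 751 such genes tested the median log2 was 0.01, against 0.00 for the 13783 with an annotated region and no match. With the block 5 rose and 1 fell, which is 0.799% against 0.348% of the genes with no match. The 5 were Nr4a3, Ptgs2, Egr3, Bcorl1 and Zfp516, and the 1 that fell was Tfrc. Nr4a3, Ptgs2 and Egr3 are also on the immediate-early list, so their rise cannot be assigned to the match. Of these 6 genes, Nr4a3 and Egr3 were also called without both libraries numbered 2, and the other four were not. For the 29 genes with at least 2 matches the median was -0.01 and 0 passed. Small RNAs were not measured in these libraries, so the level of miR-7 itself is not analysed here.

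Markers of the bulb's own cells and of its neighbours were examined as lists. Over 19 marker lists with 220 genes tested, list medians ran from a log2 of -0.28 to 0.19; 1 gene rose with the block and 0 fell, against 0.316% and 0.0372% of all genes tested. That gene was Nr4a2, on the dopaminergic list and also an immediate-early gene. Th, the rate-limiting enzyme of dopamine synthesis, had 222, 226 and 208 CPM in wild type and 208, 227 and 203 CPM in the knockout, which overlapped. Of 16 granule-cell markers 4 were higher (median -0.03), and of 15 mitral and tufted markers 7 were higher (median -0.02). Tbx21 was lower in all 3 pairs, with a log2 of -0.20 (SE 0.08) that did not pass. In RNA of whole bulbs, fewer cells of a type and less RNA per cell cannot be told apart.

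Some marker lists leaned to one side of 0 without a member passing. Markers of excitatory forebrain neurons, which are typical of the adjoining frontal cortex, were higher in 12 of 13 genes (median 0.19), and their summed level ran from 1940 to 2080 CPM in wild type and from 2130 to 2400 CPM in the knockout. Camk2a, the abundant kinase of such neurons, had 931, 897 and 883 CPM against 1127, 974 and 1062 CPM. The part of such cells in the immediate-early result was not tested. All 12 microglial markers were lower in the knockout (median -0.19), with wild type 2 the highest: the summed level was 544, 733 and 567 CPM in wild type and 583, 519 and 493 CPM in the knockout, and the groups overlapped. Olig2, a factor of the oligodendrocyte lineage, was at 23.4 CPM ± 1.82 (SD, n = 3) and 16.7 ± 0.825 (SD, n = 3), groups apart, and did not pass (adjusted p = 0.0538 in edgeR with the block); for Sox10 and Pdgfra of the same list the groups overlapped.

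Over lists for glutamate receptors, GABA receptors, vesicle release and neuropeptides, 79 genes were tested and 0 passed with the block in edgeR. Of all genes tested 0.353% did, so the count lies near that share. Without the block 1 of the 79 was lower at an unadjusted p under 0.05, as were 2.6% of all genes tested. Their list medians lay between a log2 of -0.04 and 0.08. Glucocorticoid-induced genes had 15 tested members, a median log2 of 0.11 (-0.002 over all genes tested) and 2 that rose with the block (0.316% of all genes tested): Per1 and Cdkn1a, a cell-cycle inhibitor that many stimuli induce. Neither was called without both libraries numbered 2, and the log2 of Cdkn1a was 0.54 (edgeR adjusted p = 0.388).

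**Figure D4:**
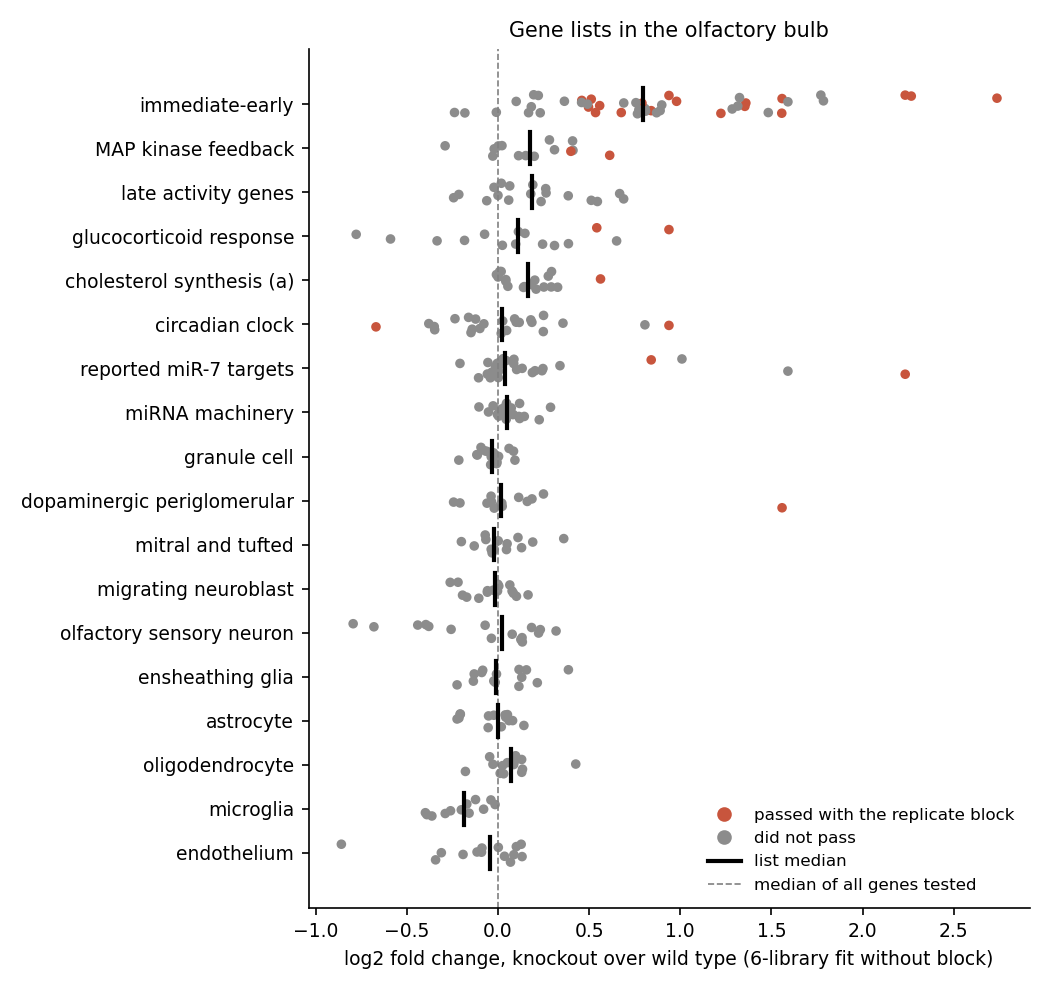
Each point is 1 gene's log2 fold change in the 6-library fit without a block, by list; coloured points passed with the replicate block, bars are list medians and the dashed line the median of all genes tested. Of the lists, 18 are plotted; the immediate-early median is at 0.80 and those of the other 17 plotted lie between -0.186 and 0.185; the list marked (a) was chosen after values were seen.

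Where the bulb differed from the other regions was tested as the knockout effect in the bulb minus the mean effect in cerebellum, cortex and hippocampus. One gene of 17266 passed (0.00579%), Atf3, whose effect was larger in the bulb by a log2 of 1.92 (edgeR adjusted p = 0.0467, 0.00458 with the block). On the scale of all 24 libraries its mean level went from 3.48 ± 1.32 CPM to 23.5 ± 4.92 CPM (SD, n = 3) in the bulb. In the cortex it went from 0.979 ± 0.269 to 2.32 ± 0.329 CPM, in the hippocampus from 1.04 ± 0.242 to 1.9 ± 0.468 CPM and in the cerebellum from 1.03 ± 0.255 to 1.35 ± 0.0704 CPM. The knockout effect was thus a log2 of 2.76 in the bulb and 0.38 to 1.27 elsewhere. Without the 8 libraries numbered 2 no gene passed. Leaving out single libraries, the call of Atf3 held without wild type 3 of the bulb, wild type 3 of the cortex, wild type 2 of the cerebellum, wild type 2 of the hippocampus or knockout 3 of the hippocampus, and was lost without any other 1 of the 24.

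The next smallest p-values of that test did not pass in edgeR; in DESeq2 the same test called 5 genes: Atf3, 1190002N15Rik, Sstr2 (adjusted p = 0.00294), Lonrf1 (0.0339) and Dusp16 (0.0339). Sstr2 went from 1.89 to 6.08 CPM in the bulb, from 25.0 to 35.9 CPM in the cortex, from 10.9 to 12.2 CPM in the hippocampus and from 1.09 to 0.806 CPM in the cerebellum (difference in log2 1.59, edgeR adjusted p = 0.442). For Lonrf1 the knockout effect was 0.56 in the bulb, 0.33 in the cortex, -0.13 in the hippocampus and -0.29 in the cerebellum (adjusted p = 0.442 in edgeR). Dusp16 and Plk2, a Polo-like kinase of active neurons, differed by 0.49 and 0.51. With the block, edgeR added 1190002N15Rik, named only because it completes a count of 2 (0.0116%): it went from 94.7 to 119 CPM in the bulb and from 62.6 to 45.7 CPM in the cortex (adjusted p = 0.0432). For the immediate-early genes other than Atf3 a larger effect in the bulb was therefore not shown.

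**Figure D5:**
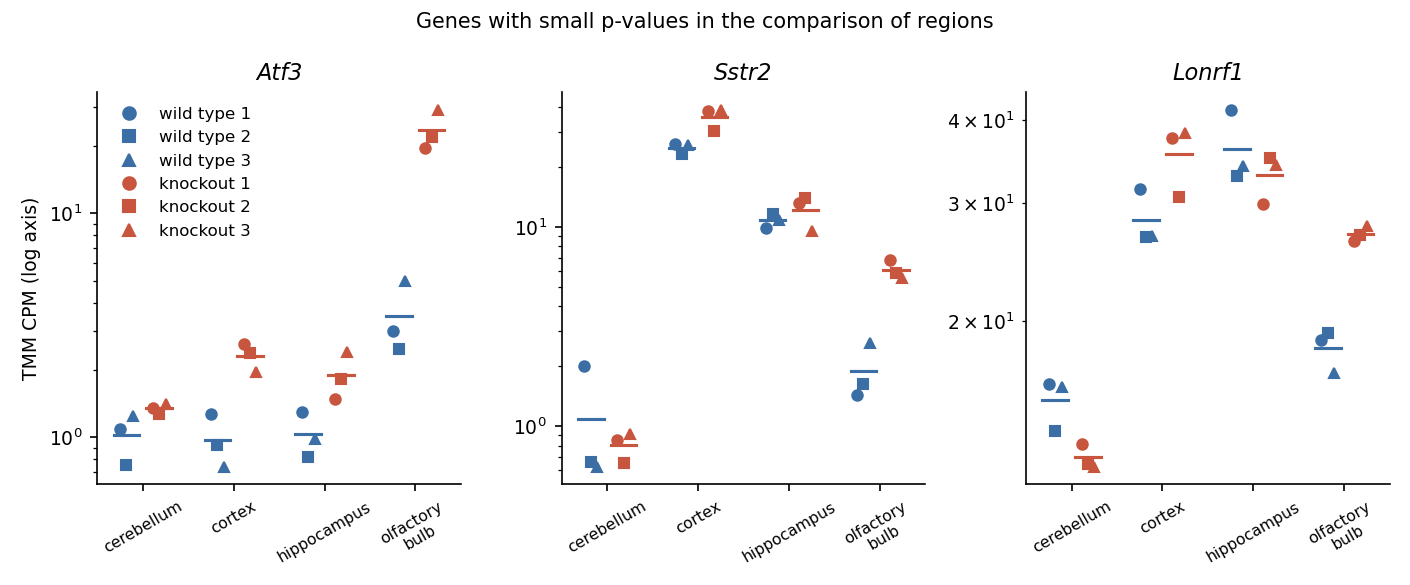
Level of Atf3, Sstr2 and Lonrf1 in each of the 24 libraries, by region and genotype, in TMM-scaled CPM on log axes, with bars at the group means. Knockout points of Atf3 lie furthest from wild type in the bulb, from 19.5 to 29 CPM against 2.49 to 4.98 CPM.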

How the data were processed

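Raw counts per gene were deposited by the authors for each library. The submitters' processing notes list bcl2fastq 2.17.1.14, STAR 2.5.1b, HTSeq 0.6.1p1 and the mm9 build; the IDs are those of Ensembl 67 plus Cdr1asG, and the strand setting is not given in the sources used here, so reads of overlapping antisense genes may not be separable. Lines for reads outside genes (13.3 to 16.7% of the total over all lines, dropped ones included, per bulb library) and for multiply mapped reads were dropped, 5 lines per table.

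The counts were filtered with filterByExpr, scaled by TMM and tested with edgeR 4.0.16 (quasi-likelihood, Benjamini-Hochberg over all genes, threshold 0.05) on the 6 bulb libraries without a block, with the replicate number as a block, and on 24 libraries in 8 groups. SE is that of the log2 fold change. The numbers were treated as pairs because deviations from the group means correlated within all 3 equal numbers. Over 14388 genes r was 0.448, 0.797 and 0.291. For unequal numbers r ran from -0.685 to 0.494, so libraries numbered 1 and 3 also resembled each other across numbers. Where 1 library of each group stands apart, centring on the group mean makes the others deviate alike. The values for numbers 1 and 3 therefore cannot show that these are pairs. An exact permutation of 3 against 3 cannot give a two-sided p under 0.1. DESeq2 1.42.0 and limma 3.58.1 were alternatives. Simulated data were used to test the 3 edgeR fits of the bulb effect only, not DESeq2, limma or the comparison of regions. They were drawn from each fit's own model, so they cannot show if treating the numbers as pairs is right. Between libraries of a group, counts differed by 9.62 to 56.1 times the sampling noise (chi-square per degree of freedom).

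The members and lists were chosen with earlier results of these data known; lists for cholesterol synthesis, pituitary, nasal mucosa, plasma cells and MHC class II and the miR-132/212 host were added after values were seen. Of 575 list symbols, 566 matched. Named genes are those past the threshold with the largest log2, a mean of at least 1 CPM and groups apart, otherwise those with the smallest p, up to 4 per list, and any named for completeness.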

Additional observations from a re-analysis of the deposited data

Results flagged for a closer look

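The knockout effect on Atf3 in the olfactory bulb exceeded the mean effect in the 3 other regions by 1.92 on the log2 scale, in a test of the difference itself (edgeR, adjusted p = 0.0467). All 3 knockout bulbs were above all 3 wild-type bulbs. The call was lost with library totals in place of TMM, without the 8 libraries numbered 2, and without most single libraries; where 1 library was left out and the call held, the difference was 1.97 to 2.26.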

How the results depend on the processing

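The count of genes called in the 6-library fit was 0; it was 57 with the replicate block, 62 with DESeq2, 2 without a filter on low counts, 20 with the spread from 24 libraries, and 1 without both libraries numbered 2. With the replicate block the count of 57 went to 0 without the block, 116 without both libraries numbered 1, 7 without both numbered 2 and 143 in DESeq2. For the 24-library fit, 20 became 103 with a replicate block, 81 with DESeq2 and 2 without both bulb libraries numbered 2, and ranged from 3 to 22 leaving out each bulb library in turn. For the comparison of the bulb with the other regions, 1 became 2 with the replicate block, 0 with library totals, 5 with DESeq2 and 0 without the 8 libraries numbered 2, and ranged from 0 to 2 leaving out each library in turn. Cdr1asG passed with the replicate block (-4.37), with DESeq2 (-4.38) and without both libraries numbered 2 (-4.36). Log2 values that changed sign, none of them called, were those of Omp (-0.01 with limma-voom; -0.18 to 0.47 leaving out each library), Bpifb9b (-3.99 without both libraries numbered 2; -3.38 to 6.75 leaving out each library) and Bpifb4 (-3.66 to 0.28 leaving out each library). Where fewer libraries were used the residual degrees of freedom also fell; otherwise the cause was not tested. Depth limits low genes most. Cdr1asG had 5 reads in knockout 2, although that library was the deepest of the bulb libraries (40.5 M gene counts).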

Other observations

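Genes of cholesterol synthesis, a list put together after values were seen, were higher in the knockout bulb in 17 of 18 cases, with a median log2 of 0.164 against -0.002 over all genes tested. Cyp51 rose with the replicate block. Mvd, Msmo1 and Sqle, further enzymes of the pathway, had groups apart and log2 values of 0.29, 0.29 and 0.25 without passing. Srebf2, the factor that drives the pathway, had 223, 210 and 211 CPM in wild type and 254, 246 and 240 CPM in the knockout and did not pass in either edgeR fit.

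The host transcript of miR-132 and miR-212, 1700016P03Rik, had 5.34, 8.32 and 16.4 CPM in wild type and 20.7, 45.5 and 42.9 CPM in the knockout. The groups were apart, and the log2 of 1.86 (SE 0.48) did not pass (edgeR adjusted p = 0.781 without a block). The 2 microRNAs, induced by CREB in neurons, are shown for their common seed, in capitals (RefSeq, GRCm38.p6, plus strand, chr11:75173723-75173744 and chr11:75173443-75173464).
mmu-miR-132-3p: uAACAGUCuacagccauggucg
mmu-miR-212-3p: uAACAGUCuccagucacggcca

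Transcripts typical of neighbouring tissues differed between single libraries. Gh had 10.3, 0.594 and 4.34 CPM in wild type and 15.1, 4.86 and 541 CPM in the knockout, and Prl, the pituitary's prolactin, reached 122 CPM in the same knockout 3. Among nasal genes, Cyp2a5 had 75 CPM and Bpifb4 58.8 CPM in wild type 3, while Bpifb9b had 74.5 CPM in knockout 2 and at most 0.565 CPM elsewhere. Igkc, an immunoglobulin light chain, had 8.62, 22.6 and 5.23 CPM in wild type and 4.26, 1.12 and 1.07 CPM in the knockout, and Jchain 4.65, 11.3 and 2.83 CPM against 1.99, 1.22 and 1.2 CPM. All 7 MHC class II genes were lower in the knockout (median -0.853), with summed levels of 51.1, 101 and 53.4 CPM against 51.1, 44.6 and 18.4 CPM. Omp, the marker of mature olfactory sensory neurons, whose axons reach the bulb, had 97.4, 108 and 109 CPM in wild type and 160, 131 and 53.8 CPM in the knockout. In edgeR with the block or with 24 libraries none of these genes passed.

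Some genes chosen from earlier results were also read. Xlr3b had 11.6, 1.64 and 6.97 CPM in wild type and 1.77, 1.56 and 2.3 CPM in the knockout, with overlapping groups. Tmem252 went from 0.365, 1.12 and 1.84 CPM to 3.5, 2.68 and 2.91 CPM and Tnfrsf25 from 2.01, 2.48 and 2.69 CPM to 3.14, 5.19 and 5.06 CPM, both with groups apart and neither past the threshold. Dnajb1, a heat-shock cochaperone, had 38.9, 39.3 and 36.9 CPM in wild type and 53.9, 58.9 and 73.6 CPM in the knockout, with an adjusted p of 0.058 in edgeR with the block.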
